A study of Mus musculus with 6 samples.

Results

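The genes described here build the centromere and the kinetochore or belong to the chromosomal passenger complex. They are 36 genes chosen by name, of 19938 genes with a single symbol on the array, and all 36 were measured, each by 1 probe set. RNA came from AML-12 cells, a mouse hepatocyte line that carries a transgene for transforming growth factor alpha. In the siMnSOD group a retrovirus gave the cells a hairpin that targets Sod2, the gene of manganese superoxide dismutase (MnSOD), and in the siScramble group the same vector carried a scrambled hairpin with no target gene. Both groups had been selected with puromycin, and each had 3 arrays (Affymetrix Mouse Gene 1.0 ST), taken from different frozen batches of cells and titled as biological replicates. The labels do not say whether the batches came from separate transductions or whether the lines were clones, so every p-value refers only to the spread seen among these arrays, which may be technical.

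The centromere is the stretch of chromosome on which spindle microtubules pull in mitosis. It is marked by nucleosomes that hold the histone H3 variant CENP-A. On these nucleosomes sits the constitutive centromere-associated network (CCAN), which in turn recruits the outer kinetochore, where the NDC80 complex grips the microtubule. Unattached kinetochores load MAD1, MAD2 and BUB3 and so hold the cell before anaphase, and the passenger complex, with Aurora B as its kinase, corrects wrong attachments. Many of these genes are transcribed mainly in the G2 phase and mitosis. Their promoters often carry a cell cycle homology region (CHR) near the start of transcription, with CCAAT boxes upstream of it, whereas E2F sites are typical of genes that act from late G1 on.

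Promoter windows from RefSeq (build GRCm38.p6, 250 bases before to 50 after a transcript start) were present for 31 of the 36 genes. They were searched on both strands for CHR (TTNGAA, in which N is T or C), for the CCAAT box, and for an E2F core (TTNNCGC, in which each N is C or G). These motifs may overlap one another, and a gene with several windows counted as holding a motif if any window did. CHR letters stood in the windows of 13 genes (41.9%), against 21.7% of all 27025 genes in that table and 19.0% of those also on the array. CCAAT was found for 19 genes (61.3%, against 41.1% and 41.7%) and an E2F core for 11 (35.5%, against 10.9% and 14.7%). Both CHR and CCAAT were present for 10 genes (32.3%, against 9.65% of all genes). All 3 motifs occurred for Cenpl, Cenpm and Cenpn. These are matches of letters, not sites shown to be bound, and the shares were not tested.

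The 6 windows printed were chosen after the matches and the array values were seen, to show the range of layouts found beside the array values given further on. Cenpa, Cdca8 and Spc25 have CCAAT boxes followed by CHR letters just past the transcript start. In Cdca8 the last CCAAT, on the opposite strand, overlaps the CHR letters and ends after them. Cenpm has all 3 motifs upstream, Zw10 has CHR and E2F letters far upstream, and Nuf2 has none in this window. The stretch runs from 180 bases before to 30 after the start, 5′ to 3′ on the strand of the gene. Capitals mark matches on either strand, so that a CCAAT on the opposite strand reads ATTGG.
Cenpa, chr5:30666706-30666915, plus strand: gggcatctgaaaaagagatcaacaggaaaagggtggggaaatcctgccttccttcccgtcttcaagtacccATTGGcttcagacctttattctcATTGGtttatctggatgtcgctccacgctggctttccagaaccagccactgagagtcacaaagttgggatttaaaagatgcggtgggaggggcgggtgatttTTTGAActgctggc
Cdca8, chr4:124936888-124937097, minus strand: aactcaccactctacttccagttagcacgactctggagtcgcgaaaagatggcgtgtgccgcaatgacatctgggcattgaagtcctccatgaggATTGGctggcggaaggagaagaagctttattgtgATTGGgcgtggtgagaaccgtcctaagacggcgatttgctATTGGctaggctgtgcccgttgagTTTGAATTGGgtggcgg
Spc25, chr2:69206184-69206393, minus strand: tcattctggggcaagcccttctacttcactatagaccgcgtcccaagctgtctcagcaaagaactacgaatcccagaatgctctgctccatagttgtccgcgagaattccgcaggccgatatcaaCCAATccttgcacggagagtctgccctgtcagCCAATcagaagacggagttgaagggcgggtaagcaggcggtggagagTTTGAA
Cenpm, chr15:82244307-82244516, minus strand: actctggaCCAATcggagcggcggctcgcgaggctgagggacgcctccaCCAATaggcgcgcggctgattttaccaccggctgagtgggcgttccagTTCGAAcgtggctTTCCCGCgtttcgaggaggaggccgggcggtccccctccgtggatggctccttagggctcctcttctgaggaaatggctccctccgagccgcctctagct
Zw10, chr9:49055401-49055610, plus strand: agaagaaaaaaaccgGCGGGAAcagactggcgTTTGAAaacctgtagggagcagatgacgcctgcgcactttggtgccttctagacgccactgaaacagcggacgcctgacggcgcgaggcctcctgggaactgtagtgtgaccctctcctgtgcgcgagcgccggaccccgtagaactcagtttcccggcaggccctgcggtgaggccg
Nuf2, chr1:169531435-169531644, minus strand: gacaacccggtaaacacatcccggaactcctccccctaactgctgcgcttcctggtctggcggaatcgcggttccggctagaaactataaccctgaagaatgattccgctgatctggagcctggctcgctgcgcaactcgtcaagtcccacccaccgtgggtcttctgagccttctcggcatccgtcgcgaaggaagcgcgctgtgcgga

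Both the arrays and the labels were checked before the genes were compared. Deposited values are linear normalized intensities, with a median over all probe sets between 26.8 and 33.6 on the 6 arrays. Replicate 3 stood apart in both groups. Replicates 1 and 2 had a Pearson r of 0.9921 within siMnSOD and 0.9934 within siScramble over all log2 values, whereas siScramble replicate 3 had 0.9762 and 0.9763 with the other siScramble arrays. Sod2 read 98.8, 121 and 52.3 in siMnSOD replicates 1, 2 and 3 and 248, 254 and 293 in siScramble, so the target was lower on every siMnSOD array. Its log2 difference was −1.63 (SE 0.30, adjusted p = 0.037), and the exact two-sided permutation p was 0.1, the lowest that this number of arrays can give. The Sod2 call was lost without siMnSOD replicate 1 or 2 (adjusted p = 0.10 and 0.072) and without siScramble replicate 1 or 2 (0.12 and 0.13). Of 14 measured hepatocyte markers 11 lay above a background guide of 19.4 intensity units, the 95th percentile of 1027 olfactory receptor genes. Albumin, transthyretin and Ahsg did not, whereas Trf, Apob, Hnf4a and the keratin genes Krt8 and Krt18 did. Markers of endothelial cells (2 of 7 above the guide) and of stellate cells and fibroblasts (5 of 8) had summed levels of 117 to 151 and 200 to 245 in siMnSOD and of 121 to 151 and 210 to 241 in siScramble, and those of macrophages and leukocytes (4 of 8) of 324 to 367 and 307 to 333. Biliary markers (3 of 5) were higher in sum, with 3902 to 4189 against 1912 to 3300, as were the hepatocyte markers, with 15941 to 18365 against 11332 to 15360. Keratins made up most of both sums: Krt8 had means of 8460 and 5673 (adjusted p = 0.12, or 0.043 with the block), and the median log2 difference was 0.05 over the hepatocyte list and 0.07 over the biliary list. In these lists Hnf4a rose (1.09, adjusted p = 0.013, or up to 0.08 without siMnSOD replicate 1 or 2 or siScramble replicate 2) and Sox9 fell (−0.86, adjusted p = 0.027, or up to 0.15 without any 1 of replicates 1 and 2), and the part of these shifts in the results was not tested. The endothelial markers Pecam1 and Cdh5 and the leukocyte marker Ptprc lay under the guide. Above it were the endothelial markers Vwf and Stab2 and the macrophage and leukocyte markers Cd14, Cd68, Csf1r and Cd3e. Cd14 had means of 207 in siMnSOD and 172 in siScramble.

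Centromere and kinetochore genes were mostly higher in the cells with less MnSOD. The log2 difference, siMnSOD minus siScramble, was above 0 for 35 of 36 genes, against 52.3% of all genes, with a median of 1.09 (2.14-fold) beside 0.01 over all genes. In limma 8 genes rose, against a background of 2.17% of all genes, and none fell (background 1.58%). They were Nuf2, Cenpm, Spc25, Incenp, Cenpl, Cenpt, Mad1l1 and Zw10, with log2 differences from 0.54 to 2.28 and adjusted p-values from 0.011 to 0.043. At an unadjusted p under 0.05 there were 25 higher and 0 lower, where 16.7% of all genes passed in either direction. Every siMnSOD array lay above every siScramble array for 26 genes, against 11.1% of all genes. In RNA from whole cultures, a larger share of dividing cells and more RNA per dividing cell cannot be told apart.

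Size of difference and passing the test did not always go together. Among the 28 genes that did not pass, 15 had a log2 difference above 1, with SEs up to 0.95, while Cenpt and Zw10 passed with differences of 0.57 and 0.54 and SEs of 0.10. With the replicate number as a block 14 genes rose (background 4.02%), namely the 8 above together with Birc5, Cenph, Nsl1, Ska1, Ska2 and Spc24. The call was sensitive to single arrays. None of the 36 genes passed without siMnSOD replicate 1 or without siMnSOD replicate 2. Cenpl and Nuf2 alone passed without siMnSOD replicate 3, siScramble replicate 1 or siScramble replicate 2. The count over all genes fell in these fits too. It was 432 with every array, 100 without siMnSOD replicate 1 and 52 without siMnSOD replicate 2. Without siMnSOD replicate 3 it was 357, without siScramble replicate 1 133, and without siScramble replicate 2 118. Without siScramble replicate 3, 19 of the 36 genes rose (background 5.61%) although their median difference was 0.58.

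**Figure D1:**
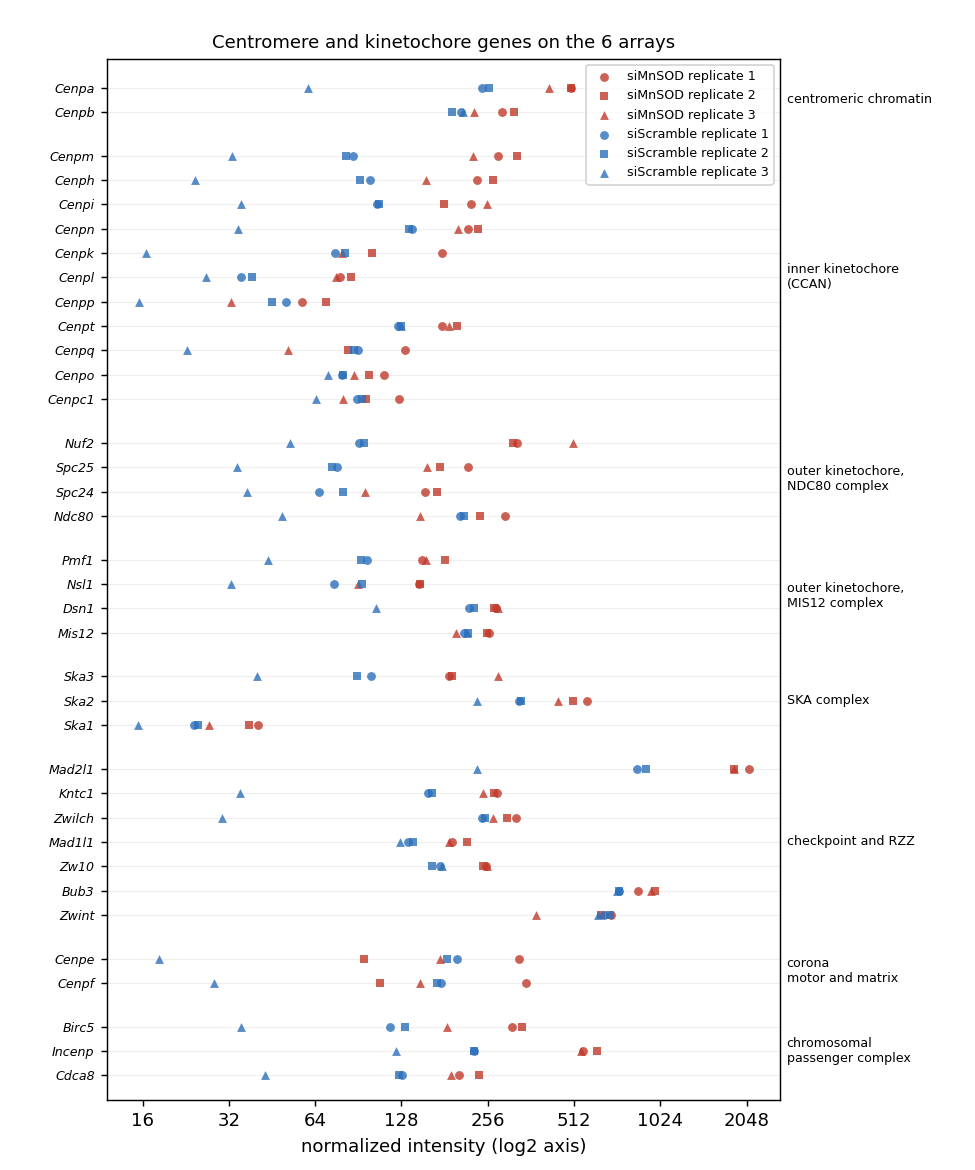
Normalized intensity (log2 axis) of the 36 genes on each of the 6 arrays, ordered by role and within a role by the difference between groups; red is siMnSOD, blue siScramble, and the marker gives the replicate number. For 26 genes all red points lie to the right of all blue ones. For 31 genes the blue triangle, siScramble replicate 3, is the lowest of the 6, as it is for 3655 of all 19938 genes.

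**Figure D2:**
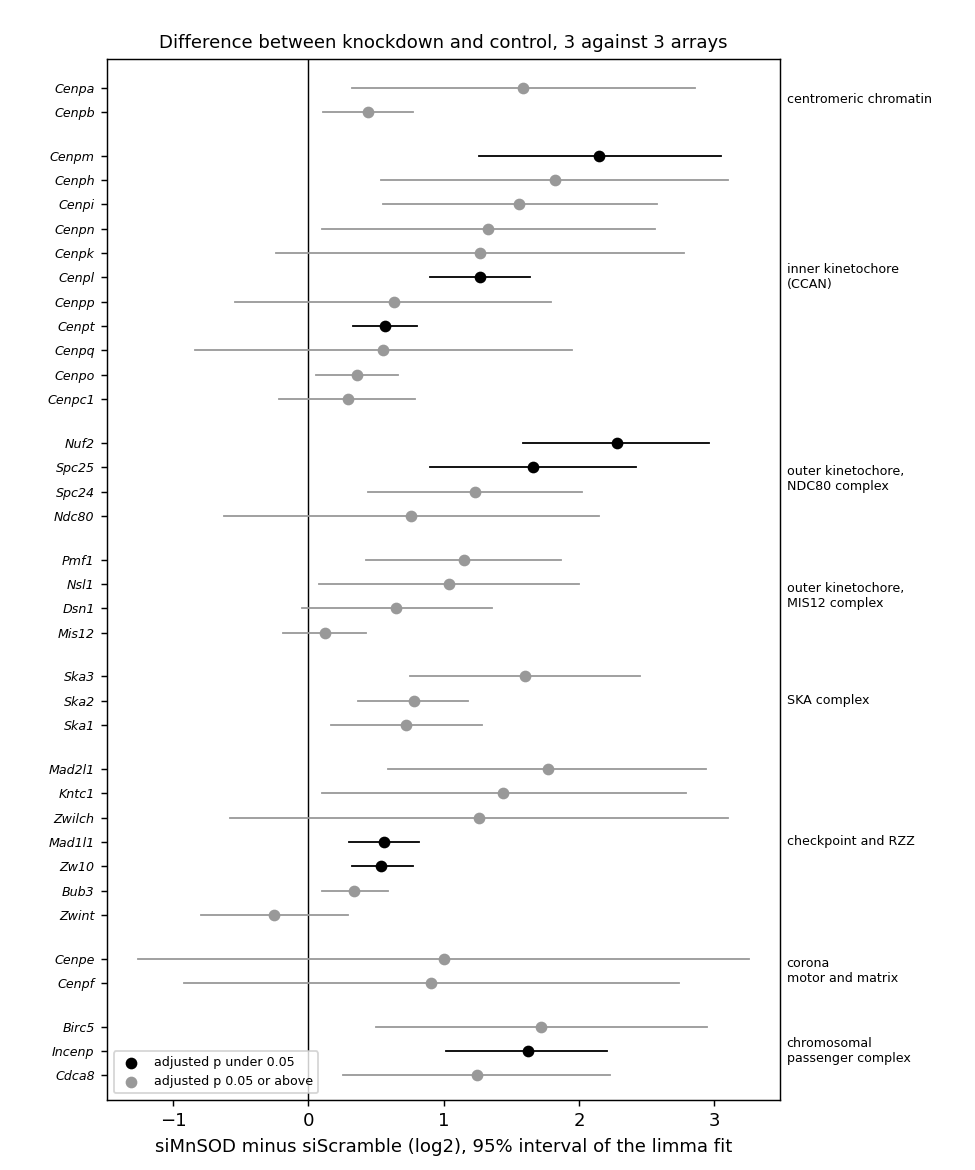
Difference between groups (siMnSOD minus siScramble, log2) for each gene, with the 95% interval of the limma fit over 3 against 3 arrays; black marks an adjusted p under 0.05. The 8 black points have intervals that lie wholly above 0, from 0.54 for Zw10 to 2.28 for Nuf2 at their centres. The intervals of 17 grey points, with an unadjusted limma p under 0.05, also lie wholly above 0. Zwint is the single gene with a value below 0.

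At the centromeric nucleosome, Cenpa and Cenpb differed in size. Cenpa, the histone variant itself, read 500, 500 and 418 in siMnSOD replicates 1 to 3 and 245, 259 and 60.3 in siScramble. All siMnSOD values were higher, and the third siScramble array was far below the others. Its log2 difference was 1.59 (SE 0.54, adjusted p = 0.19). Cenpb, which binds a short motif in centromeric satellite DNA, read 287, 315 and 230 against 206, 192 and 210. Its siScramble arrays lay close together, the groups did not overlap, and its difference was 0.44 (SE 0.14, adjusted p = 0.16). Neither passed in limma, and both had an unadjusted p under 0.05 (0.021 and 0.016). Without siScramble replicate 3 Cenpa had 0.90 and passed (adjusted p = 0.0079).

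In the CCAN, all 11 log2 differences were above 0 (median 1.27), and 3 genes rose. Cenpm, a subunit of the CENP-H/I/K/M module, read 279, 325 and 228 in siMnSOD and 86.9, 82.3 and 32.8 in siScramble. That is 4.45-fold, or 2.15 on the log2 scale (SE 0.38, adjusted p = 0.032), with no overlap. Cenpl, which pairs with CENP-N to contact the CENP-A nucleosome, read 78.1, 85.1 and 75.7 against 35.3, 38.4 and 26.6. It rose by 1.27 (SE 0.16, adjusted p = 0.011), with 1.15, 1.15 and 1.51 within replicate numbers 1, 2 and 3. Cenpt, which links DNA directly to the NDC80 complex, read 177, 200 and 187 against 125, 128 and 128. It rose by 0.57 (SE 0.10, adjusted p = 0.032), and here the third siScramble array was level with the others.

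Partners of Cenpm and Cenpl gave large but scattered differences. Cenph had 1.82 (SE 0.54, adjusted p = 0.14, or 0.034 with the replicate block) and Cenpi 1.56 (SE 0.43, adjusted p = 0.11). Cenpn, the partner of Cenpl, had 1.33 (SE 0.52, adjusted p = 0.26). None of these 3 genes overlapped between groups, and each was lowest in siScramble replicate 3, with 24.4, 35.2 and 34.3 intensity units against 91.6 or more in the other siScramble arrays. All 3 passed without that array, with log2 differences of 1.16, 1.03 and 0.67 (adjusted p = 0.028, 0.012 and 0.015).

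Cenpk overlapped between groups. It read 177, 101 and 79.4 in siMnSOD against 75.3, 81.6 and 16.4 in siScramble, with a difference of 1.27 (SE 0.64, adjusted p = 0.43), or 0.52 without siScramble replicate 3. The CENP-O/P/Q module, a peripheral part of the network, had 0.36 for Cenpo (SE 0.13), 0.63 for Cenpp (SE 0.49) and 0.55 for Cenpq (SE 0.59), and adjusted p-values of 0.20, 0.75 and 0.89. Cenpo did not overlap between groups, with 87.7 to 111 against 71.1 to 80.3, while Cenpp and Cenpq did. Cenpp had 0.09 and Cenpq −0.10 without siScramble replicate 3. Cenpc1, the scaffold that joins the nucleosome to the outer kinetochore, had the smallest difference of the network. It read 126, 96.3 and 80.3 against 89.6, 93.6 and 64.2, a difference of 0.29 (95% interval −0.22 to 0.79, adjusted p = 0.72), and 0.11 without siMnSOD replicate 1 or without siScramble replicate 3.

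In the NDC80 complex, 2 of 4 genes rose, and Nuf2 had the largest difference of all 36 genes. Nuf2, which forms the microtubule-binding head together with NDC80, read 324, 313 and 508 in siMnSOD and 91.2, 95.0 and 52.3 in siScramble. This is 4.84-fold, or 2.28 on the log2 scale (SE 0.29, adjusted p = 0.012). Replicate 3 was the highest array in siMnSOD and the lowest in siScramble. Spc25, in the pair of subunits that faces the inner kinetochore, read 219, 175 and 157 against 76.0, 73.1 and 34.2, and rose by 1.66 (SE 0.32, adjusted p = 0.043). Its partner Spc24 read 155, 170 and 95.6 against 66.0, 80.1 and 37.0. Its groups did not overlap, and its difference was 1.23 (SE 0.33, adjusted p = 0.11, or 0.0086 with the block). Ndc80 read 293, 240 and 149 against 205, 212 and 49.0. Here the groups overlapped, since siMnSOD replicate 3 lay under siScramble replicates 1 and 2, and the difference was 0.76 (95% interval −0.62 to 2.15, adjusted p = 0.73), or 0.07 without siScramble replicate 3.

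No gene of the MIS12 complex, which bridges the inner and outer kinetochore, passed in limma, and 2 of 4 had an unadjusted p under 0.05. Pmf1 had the largest difference, with 151, 182 and 156 in siMnSOD and 97.0, 92.7 and 43.8 in siScramble (1.15, SE 0.30, adjusted p = 0.10). All siMnSOD values were above all siScramble values. Without siScramble replicate 3 it passed with 0.78 (adjusted p = 0.012). Nsl1 had 1.04 (SE 0.41, adjusted p = 0.26, or 0.035 with the block), and its groups overlapped at 90.3 and 93.2. Dsn1 had 0.65 (SE 0.30, adjusted p = 0.36), with 269 to 278 in siMnSOD and 221, 230 and 104 in siScramble. Dsn1 had 0.28 and Nsl1 0.59 without siScramble replicate 3. Mis12 read 258, 254 and 198 against 211, 219 and 217. Its groups overlapped, and its difference of 0.12 had a 95% interval from −0.19 to 0.43 (adjusted p = 0.89).

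The SKA complex follows the ends of microtubules as they shorten. All 3 of its genes were higher on every siMnSOD array and had an unadjusted p under 0.05, but none passed in limma. Ska3 read 187, 192 and 278 against 100, 89.5 and 40.0, a difference of 1.60 (SE 0.36, adjusted p = 0.065, or 0.015 without siScramble replicate 3). As with Nuf2, replicate 3 was highest in siMnSOD and lowest in siScramble. Ska2 had 0.78 (SE 0.17, adjusted p = 0.062, or 0.023 with the block and 0.032 without siScramble replicate 3), with 449 to 566 against 235 to 334. Ska1 read 40.5, 37.6 and 27.3 against 24.1, 24.9 and 15.4. Its siScramble replicate 3 lay under the background guide, and its difference was 0.72 (SE 0.23, adjusted p = 0.17, or 0.022 with the block).

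Of 7 checkpoint and RZZ genes 2 rose, both with closely spaced arrays within a group. Zw10, of the RZZ complex that brings dynein and MAD1 to the kinetochore, read 253, 246 and 254 in siMnSOD and 175, 164 and 178 in siScramble. It rose by 0.54 (SE 0.10, adjusted p = 0.033), and no array stood out. Mad1l1, the platform for MAD2, read 192, 216 and 187 against 135, 141 and 127, and rose by 0.56 (SE 0.11, adjusted p = 0.043). Bub3, which docks the BUB kinases, read 857, 981 and 954 against 735, 737 and 724. Its groups did not overlap, with a difference of 0.34 (SE 0.10, adjusted p = 0.13). For all 3 genes siScramble replicate 3 was within 0.12 log2 units of the mean of replicates 1 and 2.

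The other checkpoint genes were low in siScramble replicate 3, except Zwint. Mad2l1, the inhibitor of the anaphase activator CDC20, read 2095, 1846 and 1853 in siMnSOD and 852, 911 and 234 in siScramble. The difference was 1.77 (SE 0.50, adjusted p = 0.12), and 1.13 without siScramble replicate 3 (adjusted p = 0.0030). The RZZ genes Kntc1 and Zwilch did not pass. Kntc1 read 275, 269 and 247 against 159, 163 and 35.1 (1.44, SE 0.57, adjusted p = 0.27), and without that array it had 0.71 and passed (adjusted p = 0.010). Zwilch read 320, 299 and 268 against 244, 251 and 30.4 (1.26, SE 0.78, adjusted p = 0.58), and without that array it had 0.25 (adjusted p = 0.27). Zwint, which binds KNL1, was the one gene below 0. It read 688, 634 and 377 in siMnSOD and 654, 682 and 623 in siScramble, a difference of −0.25 (95% interval −0.79 to 0.29, adjusted p = 0.82). Its low value was siMnSOD replicate 3, without which the difference was 0.02.

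For Cenpe and Cenpf the arrays scattered widely within both groups, and neither had an unadjusted p under 0.05. Cenpe, a kinesin that carries chromosomes to the metaphase plate, read 329, 94.6 and 175 in siMnSOD and 200, 185 and 18.3 in siScramble. The difference of 1.00 had an SE of 0.95 (adjusted p = 0.85), and within replicate numbers it was 0.72, −0.97 and 3.26. Without siScramble replicate 3 it was −0.13. Cenpf, a large protein of the kinetochore corona, read 349, 108 and 149 against 176, 170 and 28.4 (0.91, SE 0.77, adjusted p = 0.79), and without siScramble replicate 3 the difference was 0.04. For both genes siMnSOD replicate 2 lay below siScramble replicates 1 and 2. They were also the 2 genes of the set with more than a 2-fold gap between siMnSOD replicates 1 and 2. It was 3.47-fold for Cenpe and 3.22-fold for Cenpf, and a gap in that direction was found for 0.522% of all genes. From the related lists described below, Knl1, Sgo2a, Smc2, Smc4, Stag2, Esco2 and Nipbl had such a gap too.

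The passenger genes had the highest median of the roles, 1.62 over 3 genes, and none overlapped between groups. Incenp, the scaffold that binds and activates Aurora B, read 552, 618 and 542 in siMnSOD and 229, 229 and 123 in siScramble. It rose by 1.62 (SE 0.25, adjusted p = 0.021), or 3.06-fold. Birc5, which encodes survivin and brings the complex to the centromere, read 311, 338 and 185 against 117, 132 and 35.2. Replicate 3 was the lowest array in both groups, and the difference was 1.72 (SE 0.52, adjusted p = 0.14, or 0.023 with the block), and 1.12 without siScramble replicate 3 (adjusted p = 0.049). Cdca8, which encodes borealin, read 204, 239 and 191 against 129, 126 and 42.9 (1.25, SE 0.42, adjusted p = 0.18), and without siScramble replicate 3 it had 0.73 and passed (adjusted p = 0.018).

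The third siScramble array stood apart for most of these genes. Relative to the mean of siScramble replicates 1 and 2 it was lower by more than 2-fold for 21 of 36 genes, against 2.85% of all genes, with a median shift of −1.18 over the set and 0.10 over all genes. In siScramble replicate 3, Cenpe, Cenpk, Cenpp and Ska1 read under the background guide, so their levels there are bounds. The largest shifts were −3.39 for Cenpe, −3.02 for Zwilch and −2.61 for Cenpf. For 8 genes the shift was under 0.2 in size, and 3 of these (Cenpt, Mad1l1 and Zw10) were among the 8 that rose. SiMnSOD replicate 3 was lower than its own replicates 1 and 2 by more than 2-fold for 1 gene, Cenpq (−1.03), against 0.597% of all genes, and the median shift over the set was −0.26. The median difference between groups was 0.73, 0.66 and 1.72 within replicate numbers 1, 2 and 3. The difference was positive in 36, 32 and 34 genes respectively, and in all 3 numbers for 31 genes. In replicates 1 and 2 alone, the median was 0.71 and 25 genes rose, against a background of 11.8%. What replicate 3 differed in before RNA was extracted is not given in the sources used here.

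**Figure D3:**
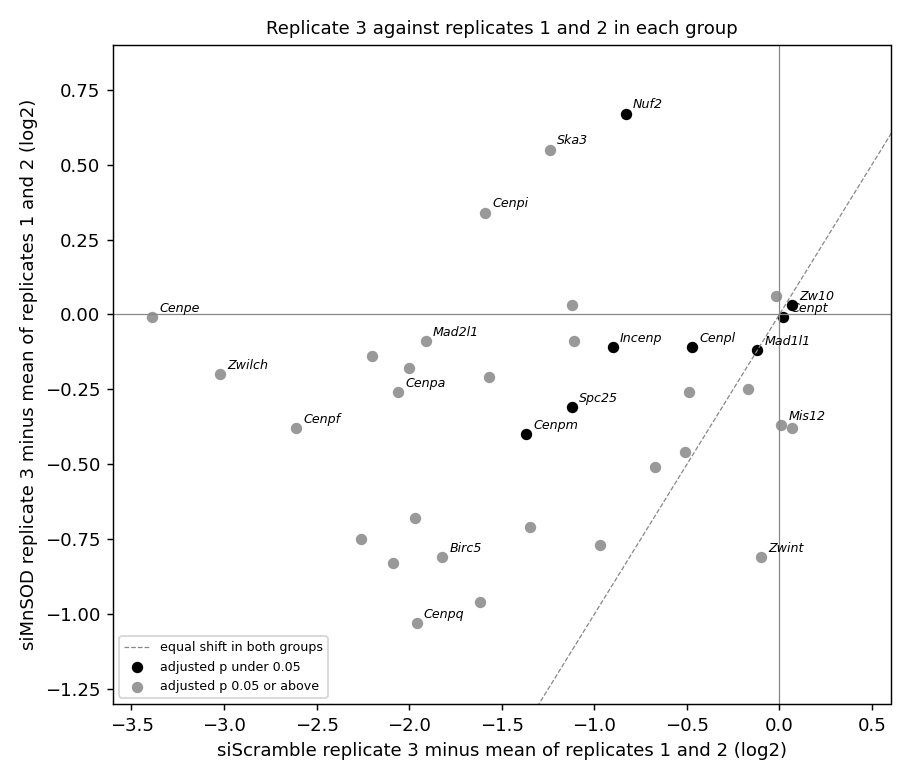
Replicate 3 minus the mean of replicates 1 and 2 on the log2 scale, in siScramble (horizontal) and in siMnSOD (vertical), 1 point per gene; black marks an adjusted p under 0.05 between groups, and the dashed line an equal shift in both. Most points lie far left of 0 and near 0 vertically: the median shift is −1.18 in siScramble and −0.26 in siMnSOD.

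The printed promoters can be set beside these values as a description. The 13 genes whose windows hold CHR letters had a median log2 difference of 1.27, and the 18 without had 0.64. For CCAAT the medians were 1.25 over 19 genes and 0.64 over 12. For the E2F core they were 0.78 over 11 genes and 1.08 over 20. The median shift of siScramble replicate 3 was −1.37 with CHR letters and −0.98 without, −1.57 with CCAAT and −0.98 without, and −0.51 with an E2F core and −1.58 without. Of the 8 genes that rose, 7 had a window. With CHR letters 4 of 13 genes rose, and without them 3 of 18. For CCAAT it was 3 of 19 with and 4 of 12 without, and for the E2F core 3 of 11 and 4 of 20. Nuf2, the gene with the largest difference, held none of the 3 motifs in the window shown.

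Related genes outside the set were read from lists of the same machinery. Of 5 measured genes for CENP-A deposition, 2 rose and none fell (unadjusted p under 0.05: 2 higher and 0 lower). Mis18a, which licenses the centromere for new CENP-A, rose by 1.99 (SE 0.31, adjusted p = 0.023) and Oip5, its partner, by 1.33 (SE 0.18, adjusted p = 0.016). The histone chaperone gene Rbbp4 (0.17, adjusted p = 0.78) and the nucleophosmin gene Npm1 (−0.13, adjusted p = 0.94), which serve many processes, did not pass. Without siMnSOD replicate 1, siMnSOD replicate 2, siScramble replicate 1 or siScramble replicate 2, neither Mis18a nor Oip5 passed (adjusted p up to 0.12 and 0.078).

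Among 16 further centromere and kinetochore subunits 3 rose and 1 fell, with a median of 0.69. Cenps and Cenpx, which form a histone-fold module with CENP-T, rose by 0.77 (SE 0.10, adjusted p = 0.012) and 0.97 (SE 0.13, adjusted p = 0.013). The dynein regulator gene Nde1 rose by 0.95 (SE 0.15, adjusted p = 0.022), while its paralog Ndel1 fell by 0.80 (SE 0.10, adjusted p = 0.011). Ndel1 read 245, 243 and 261 in siMnSOD against 412, 436 and 460 in siScramble, so that the paralogs moved in opposite directions. With the replicate block 7 of the 16 rose and 1 fell. These 4 genes lost their calls without any 1 of siMnSOD replicates 1 and 2 and siScramble replicates 1 and 2 (adjusted p up to 0.08 for Cenps, Cenpx and Ndel1, and 0.10 for Nde1).

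Of 11 kinases and effectors of the checkpoint and passenger complex, 2 rose, and all 11 had positive values (median 1.53). Aurkb, the passenger kinase, read 639, 684 and 588 against 142, 131 and 49.1 and rose by 2.71 (SE 0.39, adjusted p = 0.017). Haspin, the kinase that marks histone H3 for the passenger complex, rose by 1.28 (SE 0.14, adjusted p = 0.0081). Plk1 (2.23, SE 0.46, adjusted p = 0.052) and Cdc20 (1.24, SE 0.33, adjusted p = 0.10) did not pass. Without siScramble replicate 3, 6 of the 11 rose. Aurkb lost its call without any 1 siMnSOD array (adjusted p = 0.074, 0.10 and 0.050 for replicates 1 to 3) or siScramble replicate 2 (0.053), and Haspin without siMnSOD replicate 2 (0.063).

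Chromosome structure and replication genes were set beside the kinetochore genes. Condensin and cohesin genes had a lower median, 0.52 over 19 genes, of which 5 rose and none fell (7 and 1 with the block). Cdca5, a regulator of cohesin, rose by 2.41 (SE 0.26, adjusted p = 0.0082), Ncapd2 by 2.00 (SE 0.28, adjusted p = 0.017), Ncapd3 by 1.47 (SE 0.10, adjusted p = 0.0018) and Ncaph2 by 1.22 (SE 0.16, adjusted p = 0.012). Smc1a, a cohesin subunit gene, completed them (0.48, adjusted p = 0.049). Without siMnSOD replicate 2 the calls of Cdca5, Ncapd2, Ncaph2 and Smc1a were lost (adjusted p = 0.063, 0.093, 0.08 and 0.19). Without siMnSOD replicate 1 those of Ncapd2, Ncaph2 and Smc1a were lost too (0.069, 0.061 and 0.17), without siMnSOD replicate 3 those of Ncapd2 and Smc1a (0.052 and 0.086), and without siScramble replicate 1 or 2 those of Ncaph2 (0.064) and Smc1a (0.17 and 0.18). The cohesin loader gene Nipbl (−0.99, adjusted p = 0.20) and the cohesin release gene Wapl (−0.62, adjusted p = 0.24) had values below 0. Both had an unadjusted p under 0.05 (0.024 and 0.032). Nipbl scattered within siMnSOD, with 636, 229 and 449 in replicates 1 to 3. Wapl fell with the block (adjusted p = 0.047) and without siScramble replicate 3 (adjusted p = 0.049). The 12 genes of the MCM helicase and GINS had a median of 1.48, and 11 rose (4 without siMnSOD replicate 1 or 2). Mcm6 read 1163, 1206 and 1004 against 209, 225 and 170 (2.49, SE 0.14, adjusted p = 0.0013) and Mcm2 1137, 1179 and 1127 against 328, 351 and 372 (1.71, SE 0.10, adjusted p = 0.0013). Mcm7 rose by 1.22 and Mcm5 by 2.76 (adjusted p = 0.0034 and 0.0042). The median shift of siScramble replicate 3 was −0.40 for the MCM and GINS genes, with none lower by more than 2-fold, against −1.18 and 21 of 36 for the kinetochore genes. The same shift was −1.93 for the 11 kinases and effectors, with 9 lower by more than 2-fold. For condensin and cohesin genes it was −0.39 (6 of 19), for the further subunits −0.18 (4 of 16), and for CENP-A deposition −0.11 (0 of 5). These lists were compared by their counts and medians, and the difference between them was not tested.

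**Figure D4:**
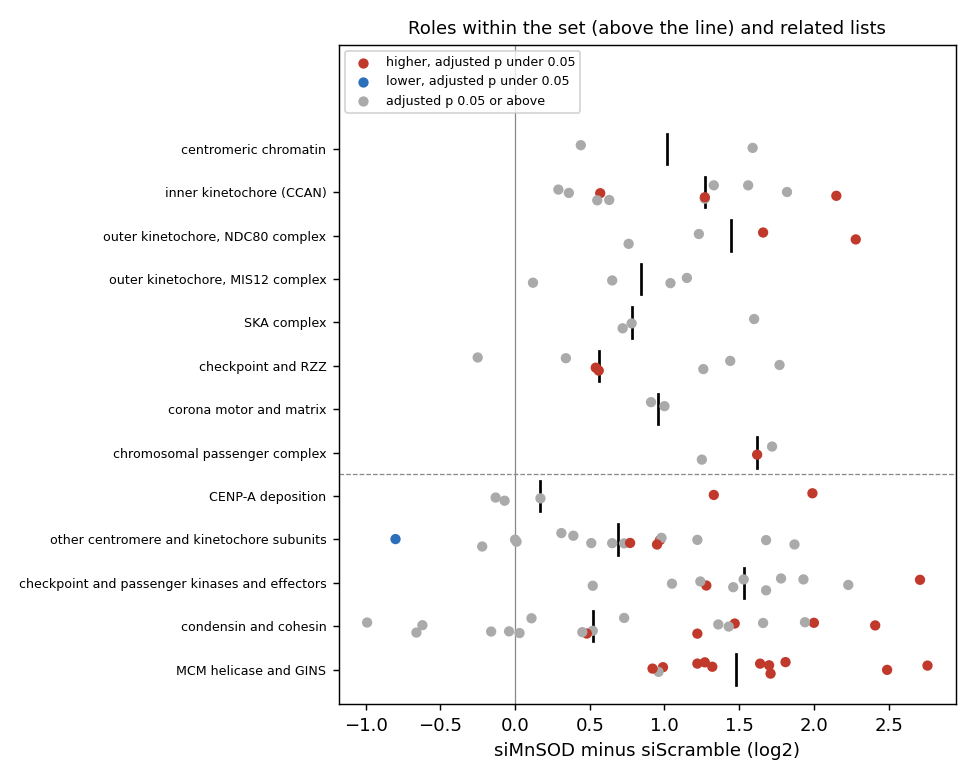
Difference between groups (siMnSOD minus siScramble, log2) for each gene, by role within the set (above the dashed line) and in 5 related lists (below); bars are medians, red and blue mark genes higher or lower at an adjusted p under 0.05. Passenger and NDC80 genes have the highest medians of the roles (1.62 and 1.45), checkpoint and RZZ genes the lowest (0.56).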

How the data were processed

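RNA was measured on 6 arrays, 3 per group. The values that the authors deposited are normalized intensities, linear, with 1 value for each probe set on an array. RMA is named per the submitters' processing notes and MAS5 scaling per the labels' design text; software versions are not stated there. Of 35557 probe sets, 21789 had 1 gene symbol in a platform annotation table, 1621 had several and 12147 had none. The probe set with the highest mean log2 value stood for a gene. Rows with several symbols were tested but not named, which gave 21559 tested rows. The fit used limma 3.58.1 (R 4.3.3) on log2 values, with group as its single term and without a filter on low values, and Benjamini-Hochberg adjustment covered every tested row (threshold 0.05). Errors are standard errors of the fit. A background guide was taken from olfactory receptor genes. The scripts were tested on simulated data. Precision is limited by having 3 arrays a group.

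The genes and lists were chosen with earlier results of these data known. All 36 genes are named, with values on every array for those that passed and for the largest and smallest difference in each role, and each related list is given by counts and up to 4 genes by smallest p. Bub3, Zwilch, Kntc1, Spc24, Cenpk, Smc1a, Nipbl, Wapl and the cell type markers were given values beyond this rule after these were seen. Knl1, Sgo2a, Smc2, Smc4, Stag2 and Esco2 were likewise named, for their gap between siMnSOD replicates alone. Same-numbered arrays deviated together from their group means (r of 0.30, 0.29 and 0.56 over the tested rows, each over 0.1). A fit with the replicate block was made an alternative on that basis. However, deviations from a group mean cancel within the group, and replicate 3 stood apart in both groups. Replicates 1 and 2 correlated more with each other's number (0.47 and 0.41). These correlations therefore cannot show that replicate 1 pairs with 1 and 2 with 2, and the block results assume that pairing. Other alternatives were median centring, quantile normalization, an offset of 16 before log2, brighter rows only, the mean of probe sets, every probe set tested, a trended robust prior, and leaving out arrays.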

Additional observations from a re-analysis of the deposited data

How the results depend on the processing

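The count of centromere and kinetochore genes that rose was 8, and 14 with the replicate block, 4 with median centring, 3 with every probe set tested, 5 with the trended robust prior and 25 in replicates 1 and 2 only. It was 8 to 10 with quantile normalization, the offset, the brighter rows or the mean of probe sets, and 0 to 19 when 1 array was left out. None fell in any of these. The median difference, 1.09, lay between 0.58 and 1.36 when 1 array was left out (0.58 without siScramble replicate 3) and was 0.71 in replicates 1 and 2 only. Over all genes, 432 were higher and 316 lower, and 801 and 623 with the block, 365 and 140 with median centring, 278 and 154 with every probe set tested, 2343 and 1932 in replicates 1 and 2 only, and 52 to 1119 and 25 to 1119 when 1 array was left out. Sod2 had −1.54 with median centring (adjusted p = 0.069) and −1.63 with every probe set tested (0.063), and −1.88 to −1.27 when 1 array was left out, with the call lost in 4 of these 6 fits (adjusted p from 0.022 to 0.13). The sign turned for Cenpe (−0.13 without siScramble replicate 3, −0.12 in replicates 1 and 2 only), Cenpq (−0.10 without siScramble replicate 3) and Zwint (0.02 without siMnSOD replicate 3), none of which passed; with 1 array left out they ranged from −0.13 to 1.60, −0.10 to 0.89 and −0.42 to 0.02. The causes were not tested. Of the other lists, the further subunits had 7 higher with the block and 11 in replicates 1 and 2 only, against 3, and the kinases and effectors 8 in replicates 1 and 2 only, against 2. Among the genes named from the lists, the block brought Krt8 (0.043), Wapl (0.047) and Esco2 (0.034) past the threshold and changed no other call. Signal limited Cenpe, Cenpk, Cenpp and Ska1 in siScramble replicate 3, where they lay under the background guide.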
